A study of Rattus norvegicus with 56 samples.

Results

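miR-320-3p, miR-484 and miR-877 are 3 mature microRNAs that reach the RNA-silencing machinery without the usual cut by the nuclear enzyme Drosha. They were taken by name from the deposited tables, as 3 of the 682 microRNA names listed there in all, and each of them was listed in all 3 sample types. The names were chosen for this shared route and not for a measured value, although results of these data were known when they were chosen.

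MicroRNAs were sequenced in Sprague-Dawley rats at embryonic day 19, in a model in which dimethadione (DMO), given by gavage to the dam, causes ventricular septal defects (VSD) in some of the fetuses. The NC group came from dams given distilled water, the VSD group from DMO-exposed fetuses with a defect and without malformed major vessels, and the non-VSD group from DMO-exposed fetuses with an intact septum. Each of the 3 groups had 7 samples of myocardium, taken from wax blocks, and 7 of centrifuged amniotic fluid, whereas maternal serum came with 7 NC and 7 VSD samples, for 56 samples in all. The sources used here do not say which dam each fetus came from, so that fetuses of 1 group may share a litter, and the p-values measure the spread between these samples.

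Most microRNAs begin as a hairpin inside a long transcript, which Drosha cuts out in the nucleus and Dicer trims to the mature strand in the cytoplasm. A short capped transcript can itself be the hairpin, as is known for miR-320, and a small intron can become a hairpin after splicing and debranching, a form called a mirtron, as is known for miR-877 in an intron of Abcf1. miR-484 is also made when Drosha is absent. How the 3 microRNAs were made was not measured in these samples.

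The mature strands are shown because their seeds decide which transcripts they can pair with. Both sequences found in the RefSeq table (rat build GRCr8) are printed 5′ to 3′, with the seed, bases 2 to 8 that pair with a target, in capitals.
miR-484: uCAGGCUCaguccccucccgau
miR-877: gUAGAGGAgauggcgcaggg
miR-320-3p had no sequence in that table.

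miR-484 has 22 bases with 63.6% G and C, lies at chr10:1394915-1394936 on the minus strand, and takes up bases 46 to 67 of its 77-base hairpin. The gene nearest to it is Marf1. Its seed is shared by 2 other rat microRNAs of the table, miR-344-5p and miR-344a-5p. miR-877 has 20 bases with 65% G and C and lies at chr20:2816284-2816303 on the plus strand, inside Abcf1, which encodes a protein of translation initiation. It starts at base 1 of its 85-base hairpin, and no other rat microRNA of the table has its seed. The hairpin of miR-877 begins with GU and ends with AG, the letters that mark the ends of an intron. Of 419 rat hairpins only 4 (0.955%) do so, and the other 3 are those of miR-1224, miR-3595 and miR-678. Only 6 of 670 mature entries (0.896%) start at base 1 of the hairpin. They are miR-877, the mirtron miR-1224, miR-702-5p, miR-381-5p, miR-664-1-5p and miR-664-2-5p. Mir320a, the gene of miR-320-3p, lies beside Polr3d, which encodes a subunit of RNA polymerase III.

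Levels are given as CPM, counts scaled to a total of 1000000 per library with the TMM factors of edgeR, which assume that most microRNAs do not differ. Totals per library were 1694811 to 9371130 counts in myocardium, 78188 to 331787 in amniotic fluid and 147609 to 581350 in maternal serum, so that a count of 0 allows up to 1.77, 38.4 and 20.3 CPM in the smallest library of each. Such limits, and the counting intervals below, cover counting error only. All 7 microRNAs of a heart muscle list, among them miR-1-3p and miR-208a-3p, had counts in every myocardium group. Their summed level had a median of 91656 CPM in NC myocardium, 8732 CPM in NC maternal serum and 450 CPM in NC amniotic fluid. As whole tissues and fluids were sequenced, fewer cells of a type and less RNA per cell cannot be told apart. Between treatment groups of the same sample type, 1 difference was called at an adjusted p under 0.05, that of miR-320-3p in non-VSD amniotic fluid.

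**Figure D1:**
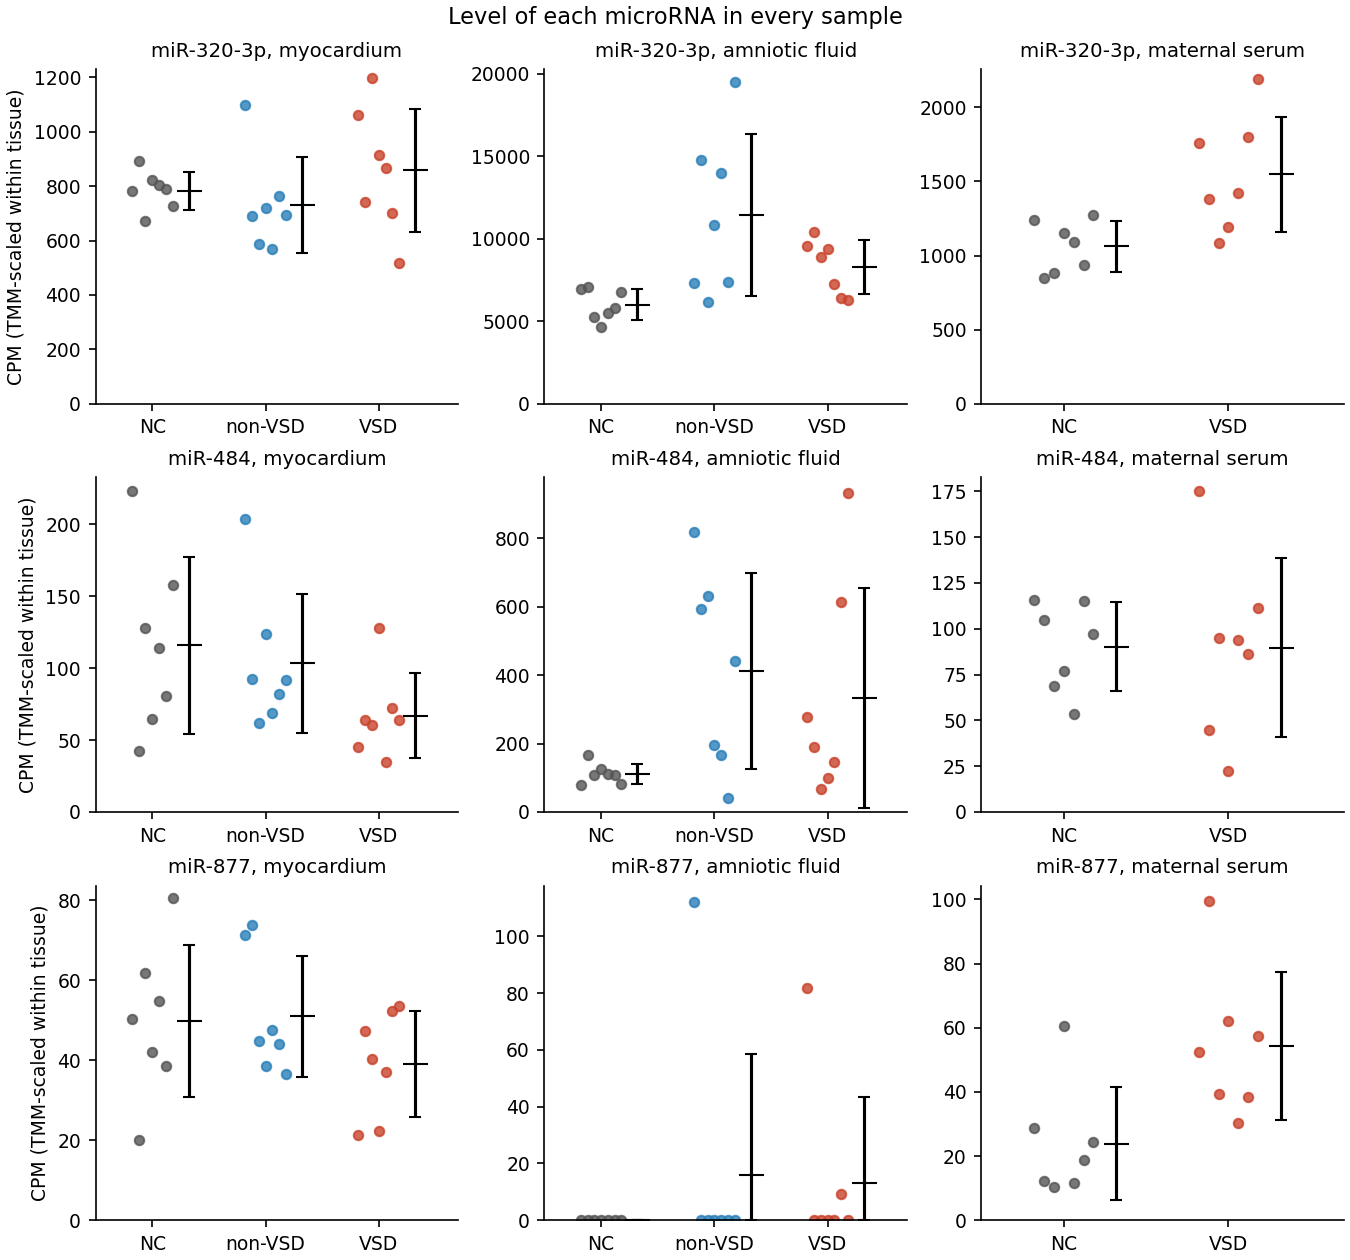
Level (CPM, linear axis from 0) of each microRNA in every sample, by group (NC, non-VSD, VSD), 1 panel for each microRNA and sample type. Points are samples, and the bar beside them is the mean with 1 SD, cut at 0. In amniotic fluid all 7 non-VSD points of miR-320-3p lie above the NC median of 5813 CPM, and miR-877 is above 0 in 3 of 21 samples.

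With TMM scaling, miR-320-3p was the most evenly expressed of the 3 microRNAs within the NC groups. In NC myocardium it was between 671 and 890 CPM (median 788) in 7 of 7 samples, a mean of 783 ± 69.9 CPM (SD, n = 7). In NC amniotic fluid it was between 4671 and 7050.2 CPM (median 5813), and in NC maternal serum between 852 and 1276 CPM (median 1093). On the log2 scale its SD among the NC myocardium samples was 0.13, and 0.414% of the 483 microRNAs tested in that tissue had a smaller one, where the median SD was 0.65. In NC amniotic fluid the SD of 0.23 was above that of 2.93% of 273 microRNAs, and in NC serum that of 0.24 was above 9.13% of 219. miR-320-3p is an abundant microRNA and low counts widen the SD of the others, so that these shares are a description. They also depend on group and scaling. In non-VSD and VSD myocardium 20.5% and 31.1% of the 483 microRNAs had a smaller SD than miR-320-3p. By library size alone, miR-320-3p ran from 412 to 1067 CPM in NC myocardium. Its mean there was 699 ± 217 CPM (SD), against 41.0 ± 10.6 CPM for miR-877.

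With TMM scaling, the spread of miR-484 and miR-877 was wider. The log2 SD of miR-484 was 0.81 in NC myocardium, above that of 63.8% of the microRNAs tested, and 0.33 in NC amniotic fluid, above 8.79%. In the non-VSD and VSD groups of amniotic fluid it was 1.41 and 1.29, against medians over all microRNAs of 1.02 and 0.95. In NC and VSD serum it was 0.39 and 0.87, above that of 39.3% and 86.3% of the microRNAs. miR-877 had a log2 SD of 0.63 in NC myocardium, close to the median of 0.65, and of 0.72 in NC serum, above 84.0% of the microRNAs there.

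**Figure D2:**
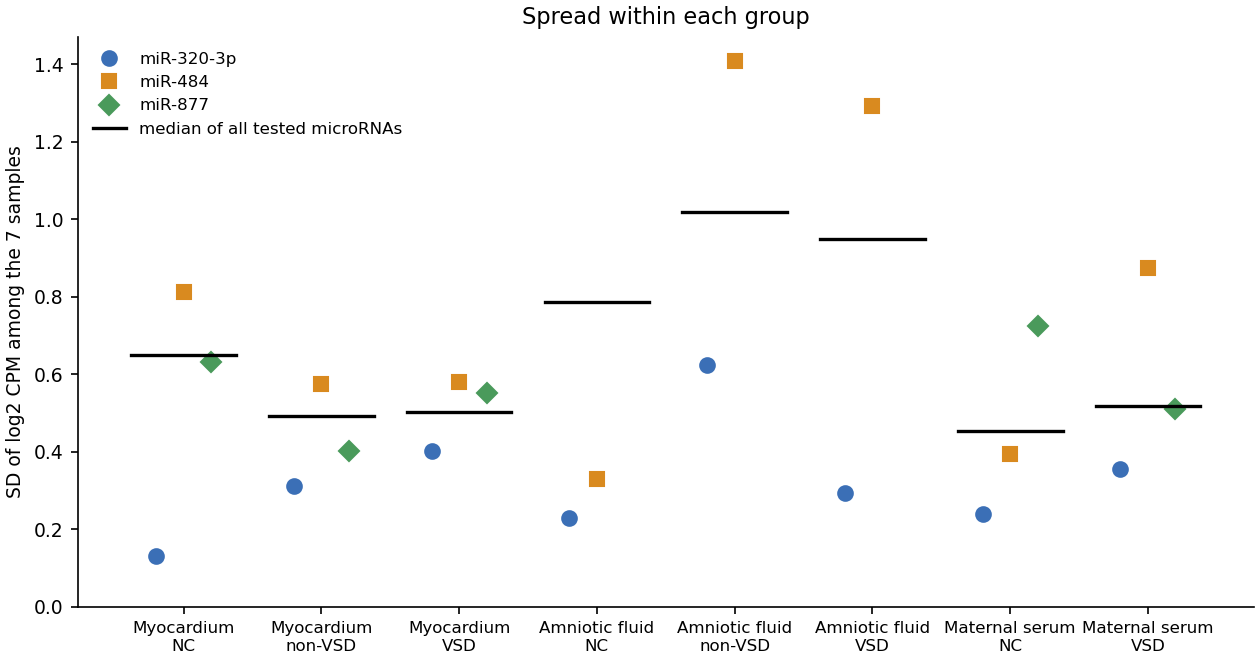
Standard deviation (SD) of log2 CPM among the 7 samples of each group, for each of the 3 microRNAs (markers) and as the median of all microRNAs tested in that sample type (black lines). miR-320-3p is below the line in every group, and miR-484 is above it in every group except NC amniotic fluid and NC maternal serum.

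Among the sample types, miR-320-3p stood highest in amniotic fluid. It was the 34th to 41st most counted microRNA of the NC amniotic fluid samples, the 51st to 64th in NC serum and the 82nd to 105th in NC myocardium. Amniotic fluid libraries were made with another kit (QIAseq) than those of myocardium and serum (TruSeq) and read on another sequencer, and a difference of level from them cannot be told apart from the kit or the sequencer. miR-484 had a median of 114 CPM in NC myocardium, 108 CPM in NC amniotic fluid and 97.2 CPM in NC serum, and the ranges of these groups overlapped. miR-877 had medians of 50.4 CPM in NC myocardium and 18.9 CPM in NC serum, again with overlapping ranges, and had a count of 0 in 7 of 7 NC amniotic fluid samples, each of which allows up to 12.1 to 37.9 CPM.

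Myocardium and serum share the library kit but not the RNA extraction kit, and their NC groups were compared over the 382 microRNAs kept. In edgeR miR-320-3p was lower in myocardium than in serum by a log2 fold change of -0.85 ± 0.17 (SE, adjusted p = 0.00027). The 2 groups overlapped, with 890 CPM in the highest myocardium sample and 852 CPM in the lowest serum sample on the scale of each tissue. The log2 fold changes of miR-484 (-0.11 ± 0.33) and miR-877 (0.64 ± 0.38) were not called, with edgeR adjusted p-values of 0.756 and 0.138. Of the 382 microRNAs 298 (78%) were called, and the median log2 fold change of all was 0.57 toward myocardium, so that 1 call among the 3 microRNAs was fewer than the background. The call of miR-320-3p was lost when only microRNAs with at least 10 counts in every sample were kept (log2 fold change -0.07, edgeR adjusted p = 0.700) and with no filter on low counts (-0.36, adjusted p = 0.116).

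The first question of the study is how the myocardium of VSD fetuses differs from that of the NC group. In VSD myocardium miR-484 was between 35.0 and 128 CPM (median 64.3), against 42.1 to 223 CPM (median 114) in the NC group. The 2 groups overlapped, although 6 of 7 VSD samples were below the NC median. The edgeR log2 fold change of miR-484 was -0.82 ± 0.35 (SE), with an unadjusted p of 0.0347 and an adjusted p of 0.211, and an exact two-sided permutation test of mean log2 CPM over 3432 groupings gave p = 0.0793. Leaving out NC replicate 2, the NC sample with the lowest miR-484, gave -1.002 and an adjusted p of 0.0483 in edgeR.

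miR-320-3p and miR-877 had smaller differences in VSD myocardium. miR-320-3p was between 519 and 1195 CPM (median 867), with 3 values above the NC range and 1 below it. Its edgeR log2 fold change was 0.08 ± 0.19 (adjusted p = 0.826). miR-877 was between 21.2 and 53.5 CPM (median 40.3) against 20.1 to 80.7 CPM in the NC group, within the NC range in 7 of 7 samples. Its edgeR log2 fold change was -0.35 ± 0.30 (adjusted p = 0.508). None of the 3 was called in VSD myocardium at an adjusted p under 0.05 or met the threshold for a DE-microRNA, an unadjusted p under 0.05 with a change of at least 2-fold. Over all 469 microRNAs edgeR called 2 (0.426%), and 32 (6.82%) met the DE-microRNA threshold.

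Red blood cell microRNAs varied widely in the same samples. The summed level of 5 of them, miR-144-3p, miR-144-5p, miR-451-5p, miR-451-3p and miR-486, was between 2727 and 101868 CPM (median 32432) in NC myocardium, 3290.4 to 35143 CPM (median 7189.9) in the non-VSD group and 3804 to 26548 CPM (median 7665) in the VSD group. The ranges overlapped, and the highest NC sums were far above all sums of the DMO groups. With the mean log2 level of these 5 as a covariate, the log2 fold change of miR-484 in VSD myocardium went from -0.82 to 0.18 (edgeR adjusted p = 0.861), and that of miR-877 from -0.35 to 0.32 (adjusted p = 0.774). That of miR-320-3p went from 0.08 to -0.18 (adjusted p = 0.826). The median red blood cell level itself differed between the groups, so that a part of red blood cells cannot be told apart from one of the group. The summed level of the 7 heart muscle microRNAs was 13683 to 251120 CPM (median 91656) in the NC group, 55144 to 107166 CPM (median 83357) in the non-VSD group and 15852 to 98038 CPM (median 50643) in the VSD group, and that of 5 white blood cell microRNAs had medians of 1468, 547 and 587 CPM. These 5 did not move alike. In the same order, medians were 553, 237 and 254 CPM for miR-142-3p and 745, 136 and 105 CPM for miR-142-5p. They were 31.3, 34.2 and 39.7 CPM for miR-223-3p and 6.77, 6.76 and 6.31 CPM for miR-223-5p. For miR-150-5p they were 179, 139 and 173 CPM. The summed level of 8 epithelial microRNAs was 251 to 14634 CPM (median 1311) in the NC group, 307 to 6755 CPM (median 1669) in the non-VSD group and 2093 to 16884 CPM (median 3211) in the VSD group. The part of these 3 lists in the values of the 3 microRNAs was not tested.

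In non-VSD myocardium all 3 microRNAs were close to the NC group. miR-320-3p was between 567.5 and 1097 CPM (median 693), miR-484 between 62.2 and 204 CPM (median 91.9) and miR-877 between 36.5 and 73.8 CPM (median 44.9), with overlap with the NC group each time. The edgeR log2 fold changes were -0.07 ± 0.18, -0.10 ± 0.35 and 0.10 ± 0.26, with adjusted p-values of 0.917, 0.930 and 0.917. None was called or met the DE-microRNA threshold, where edgeR called 1 of 456 microRNAs (0.219%) and 19 (4.17%) met that threshold.

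Between VSD and non-VSD myocardium, both exposed to DMO, miR-484 had the largest difference of the 3. Its log2 fold change, VSD over non-VSD, was -0.66 ± 0.35 in a fit of all 21 samples (edgeR unadjusted p = 0.0675, adjusted p = 0.440). Of the VSD samples 3 lay under the lowest non-VSD sample. The values for miR-320-3p and miR-877 were 0.19 ± 0.19 and -0.41 ± 0.28. Of the 483 microRNAs edgeR called 0 (0%), with 56 at an unadjusted p under 0.05 and 0 by DESeq2, and 25 (5.18%) met the DE-microRNA threshold, none of the 3 microRNAs among them.

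With both DMO groups set against the NC group, the myocardium log2 fold changes were -0.01 ± 0.16 for miR-320-3p, -0.48 ± 0.29 for miR-484 and -0.15 ± 0.24 for miR-877 (edgeR adjusted p = 0.987, 0.372 and 0.783). None was called or met the DE-microRNA threshold, against 41 of 483 microRNAs called (8.49%) and 23 (4.76%) at that threshold. Scaling moved these values. By library size alone the median log2 fold change of all microRNAs in VSD myocardium went from -0.05 to 0.32, and that of miR-320-3p went to 0.48, of miR-484 to -0.35 and of miR-877 to 0.06. Relative to the median of all microRNAs, miR-484 and miR-877 were thus lower and miR-320-3p higher under both scalings. The same change of scaling turned 12 higher and 20 lower microRNAs at the DE-microRNA threshold in VSD myocardium into 33 and 12, and 8 higher and 11 lower in non-VSD myocardium into 16 and 4. The 11 higher and 30 lower calls for both DMO groups became 47 and 9.

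**Figure D3:**
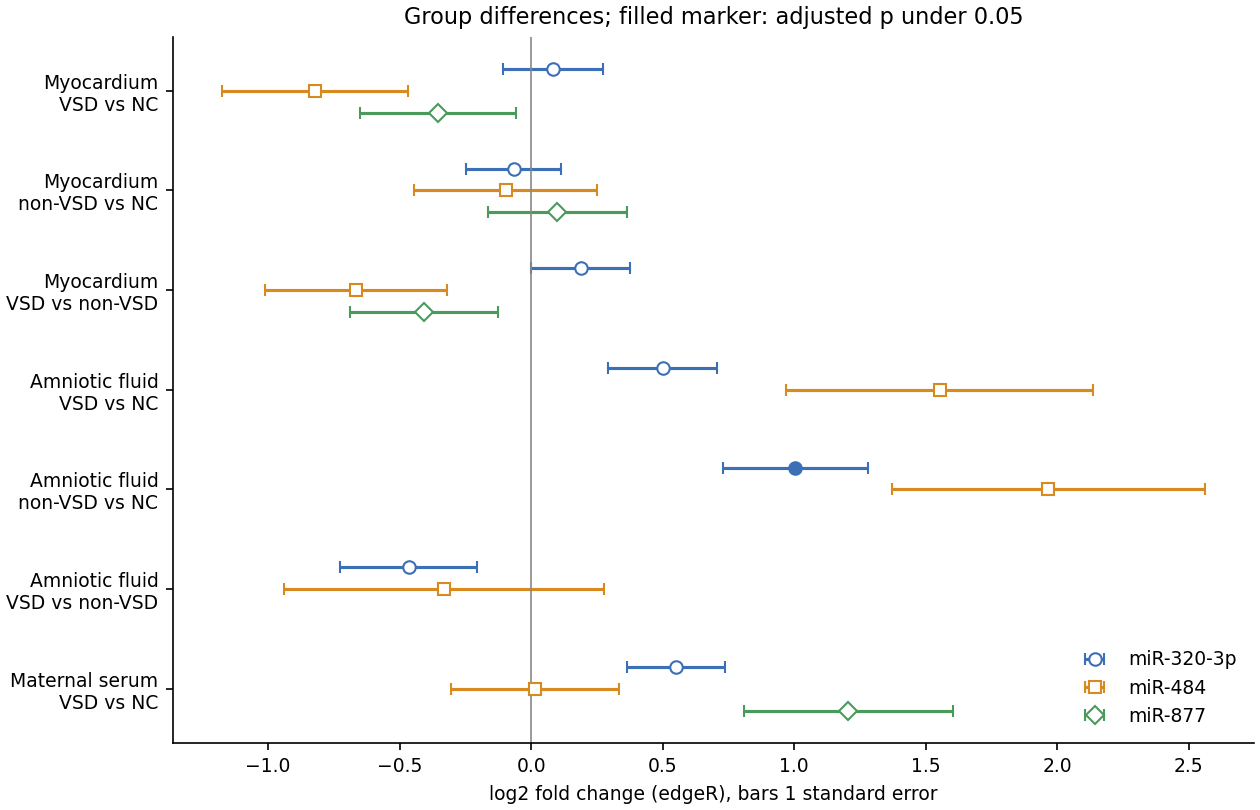
log2 fold change of each microRNA (edgeR) in 7 group comparisons, with bars of 1 standard error. A filled marker is a call at an adjusted p under 0.05, which is reached only by miR-320-3p in non-VSD amniotic fluid (1.005 ± 0.27). miR-877 is not shown in amniotic fluid, where its counts were below the filter.

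In amniotic fluid miR-320-3p rose in the non-VSD group. Its levels in the 7 non-VSD samples ran from 6182 to 19529 CPM (median 10855), against 4671 to 7050.2 CPM (median 5813) in the NC group. The groups overlapped through replicate 3 of the non-VSD group, while the other 6 non-VSD values exceeded every NC value. The edgeR log2 fold change was 1.005 ± 0.27 (SE, unadjusted p = 0.00163, adjusted p = 0.0438), a 2.01-fold difference that also met the DE-microRNA threshold, and the exact permutation test gave p = 0.00583. In this comparison edgeR called 12 of 242 microRNAs (4.96%), and 30 (12.4%) met the DE-microRNA threshold. The adjusted p was between 0.0278 and 0.0976 when 1 sample was left out, and the call was lost without any 1 of the 7 NC samples and without non-VSD replicate 2, 5 or 7, with log2 fold changes from 0.83 to 1.15. It was also lost by limma (adjusted p = 0.0548), with no filter on low counts (edgeR adjusted p = 0.0638) and with a replicate block (edgeR adjusted p = 0.136).

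In VSD amniotic fluid miR-320-3p was between 6264 and 10397 CPM (median 8887), and 5 of the 7 values exceeded every NC value. Against the NC group the edgeR log2 fold change was 0.50 ± 0.21 (unadjusted p = 0.0276, adjusted p = 0.251), and the exact permutation p was 0.0111. Between the VSD and non-VSD groups the log2 fold change was -0.46 ± 0.26 (edgeR adjusted p = 0.693), with every one of the 7 VSD samples under the median of the non-VSD samples. With both DMO groups together against the NC group it was 0.70 ± 0.23 (edgeR adjusted p = 0.124), and 14 of 14 DMO samples were above the NC median.

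miR-484 had larger fold differences from the NC group than miR-320-3p in amniotic fluid, and less even ones. NC samples were between 79.5 and 166 CPM (median 108), from 6 to 26 counts each. In the non-VSD group the 7 samples were at 817, 594, 631, 195, 167, 39.7 and 441 CPM. Of these, 6 exceeded every NC value, and replicate 6, with 3 counts, was below them all. In the VSD group the samples were at 278, 190, 67.7, 98.9, 146, 613 and 931 CPM, of which 4 exceeded every NC value and 1 was below them.

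The edgeR log2 fold change of miR-484 was 1.97 ± 0.59 in the non-VSD group (unadjusted p = 0.00362, adjusted p = 0.0585) and 1.55 ± 0.58 in the VSD group (unadjusted p = 0.0156, adjusted p = 0.238). Both met the DE-microRNA threshold and neither was called at an adjusted p under 0.05. The exact permutation tests gave p = 0.0385 and p = 0.0699. With 1 sample left out, the log2 fold change in the VSD group ran from 1.05 to 1.81. Without VSD replicate 7, the VSD sample with the most miR-484, it was 1.05 (edgeR unadjusted p = 0.0929) and no longer met the DE-microRNA threshold, nor did it by limma (1.08, unadjusted p = 0.102) or with a replicate block (1.04, edgeR unadjusted p = 0.152). In the non-VSD group the replicate block also ended it (1.58, edgeR unadjusted p = 0.0558). The non-VSD values ran from 1.72 to 2.192 with 1 sample left out, and leaving out non-VSD replicate 4 or replicate 6 of that group gave log2 fold changes of 2.192 and 2.09 with edgeR adjusted p-values of 0.0420 and 0.0278. Between the VSD and non-VSD groups the log2 fold change was -0.33 ± 0.61 (edgeR adjusted p = 0.906), and for both DMO groups against the NC group it was 1.71 ± 0.58 (edgeR unadjusted p = 0.00662, adjusted p = 0.124), which met the DE-microRNA threshold, but not by limma (1.24, unadjusted p = 0.0562).

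The counts of calls over all microRNAs of amniotic fluid set the background for these values. In the VSD group edgeR called 0 of 245 microRNAs (0%), with 33 at an unadjusted p under 0.05 and 0 calls by DESeq2, and 17 (6.94%) met the DE-microRNA threshold, with miR-484 as 1 of the 2 microRNAs tested here. Between the VSD and non-VSD groups edgeR called 0 of 273 (0%), with 29 at an unadjusted p under 0.05 and 6 calls by DESeq2, and 9 (3.3%) met the threshold, neither miR-320-3p nor miR-484 among them. For both DMO groups together 2 of 273 (0.733%) were called and 22 (8.06%) met the threshold. DESeq2 called both miR-320-3p (log2 fold change 0.85, adjusted p = 0.0134) and miR-484 (1.88, adjusted p = 0.0134) in that last comparison. Of all 273 microRNAs DESeq2 called 16 there. It also called miR-484 in the non-VSD group (2.03, adjusted p = 0.0069), where it called 29 of 242 microRNAs.

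The red blood cell microRNAs differed between the amniotic fluid groups too. Their summed level was 15453 to 32960 CPM (median 23171) in the NC group, 27251 to 93666 CPM (median 61656) in the non-VSD group and 19037 to 145939 CPM (median 39658) in the VSD group. Of the 5, miR-486 was the most counted, and miR-451-3p had a count of 0 in every NC sample. The covariate here was the mean log2 level of miR-144-3p, miR-144-5p, miR-451-5p and miR-486, as miR-451-3p had too few counts. With it the log2 fold change of miR-484 went from 1.97 to 0.41 in the non-VSD group (edgeR adjusted p = 0.907) and from 1.55 to 0.54 in the VSD group (adjusted p = 0.683). That of miR-320-3p was 1.02 in the non-VSD group (adjusted p = 0.129, no longer called) and 0.60 in the VSD group (adjusted p = 0.190), against 1.005 and 0.50 without the covariate. As the median red blood cell level itself differed between the groups, a part of red blood cells cannot be told apart from one of the group.

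MicroRNAs of other cell types were measured as lists as well. The summed level of the 5 white blood cell microRNAs, forms of miR-142, miR-223 and miR-150, had medians of 2901 CPM in NC, 8342 CPM in non-VSD and 2850 CPM in VSD amniotic fluid. That of 8 epithelial microRNAs, among them the miR-200 family, had medians of 109217, 65164 and 116020 CPM. The summed heart muscle level was 206 to 1895 CPM (median 450) in the NC group, 74.8 to 1897 CPM (median 1124) in the non-VSD group and 190 to 9061 CPM (median 1015) in the VSD group. For 3 liver microRNAs the medians were 7061, 7113 and 9709 CPM, with a highest VSD sum of 44776 CPM. The ranges of the 3 groups overlapped for each list, and the part of these cell types in the values of miR-320-3p and miR-484 was not tested.

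miR-877 was seen in 3 of 21 amniotic fluid samples and was too low to be tested. Non-VSD replicate 1 had 18 counts of 174809, or 103 CPM by library size with an exact (Clopper-Pearson) 95% interval of 61.0 to 163. VSD replicate 1 had 15 counts of 185889, or 80.7 CPM with an interval of 45.2 to 133, and VSD replicate 6 had 1 count. All 7 NC samples, 6 non-VSD samples and 5 VSD samples had a count of 0, so that the microRNA was above the limit that a count of 0 allows in single samples of both DMO groups and no group level can be given.

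In maternal serum the VSD group was compared with the NC group. The serum is that of the dam, and dams of the VSD group had themselves been given DMO. As there was no non-VSD serum group, DMO exposure of the dam and a defect in the fetus cannot be told apart there. miR-877 was between 30.2 and 99.6 CPM (median 52.5) in the VSD group, from 10 to 20 counts a sample, and between 10.3 and 60.4 CPM (median 18.9) in the NC group, from 3 to 18 counts. Each VSD sample exceeded the median of the NC samples, but only 2 exceeded all of them, since NC replicate 4 reached 60.4 CPM. By edgeR the log2 fold change was 1.21 ± 0.40 (unadjusted p = 0.00680, adjusted p = 0.176), a 2.31-fold difference that met the DE-microRNA threshold and was not called. The exact permutation test gave p = 0.00874. Without NC replicate 2 the log2 fold change was 0.98 (edgeR adjusted p = 0.196), under the 2-fold limit of that threshold.

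miR-320-3p was between 1086 and 2189.6 CPM (median 1423) in VSD serum and between 852 and 1276 CPM (median 1093) in NC serum. Of the VSD samples 5 exceeded every NC sample, and the groups overlapped. The edgeR log2 fold change was 0.55 ± 0.19 (unadjusted p = 0.00787, adjusted p = 0.176), and the exact permutation p was 0.00874. miR-484 was between 22.6 and 175 CPM (median 93.7) in VSD serum, a range that held the whole NC range of 53.5 to 115 CPM (median 97.2). Its edgeR log2 fold change was 0.01 ± 0.32 (adjusted p = 0.977). Of 219 microRNAs in serum edgeR called 0 (0%), with 30 at an unadjusted p under 0.05 and 4 calls by DESeq2, none of the 3 microRNAs among the latter. The DE-microRNA threshold was met by 10 (4.57%), all of them higher in the VSD group and miR-877 among them.

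In serum the summed red blood cell level was 66841 to 202567 CPM (median 91681) in the NC group and 44875 to 105924 CPM (median 77334) in the VSD group, with overlap. The covariate from that list rested on miR-451-5p and miR-486 alone, as the others averaged under 10 counts a serum sample. With it the log2 fold changes were 0.47 for miR-320-3p, 0.06 for miR-484 and 0.9995 for miR-877 (edgeR adjusted p = 0.288, 0.969 and 0.274). The summed white blood cell level was 35677 to 70647 CPM (median 50405) in the NC group and 46121 to 92774 CPM (median 71796) in the VSD group, and that of the heart muscle list had medians of 8732 and 4657 CPM. The ranges overlapped for both, and the part of these lists in the values of miR-320-3p and miR-877 was not tested.

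Whether a change differed between sample types was tested as the difference itself, with the group labels permuted 100000 times within each sample type and p-values adjusted over all microRNAs kept in both. The non-VSD change of miR-320-3p was -0.13 in myocardium and 0.83 in amniotic fluid on the scale of mean log2 CPM, a difference of -0.95 (permutation p = 0.00342, adjusted p = 0.0892). The VSD change of miR-484 was -0.71 in myocardium and 1.002 in amniotic fluid, a difference of -1.71 (permutation p = 0.00929, adjusted p = 0.0971). The non-VSD change of miR-484 gave a difference of -1.45 between the same sample types (permutation p = 0.0490, adjusted p = 0.320). The VSD change of miR-877 was -0.32 in myocardium and 1.11 in maternal serum, a difference of -1.44 (permutation p = 0.00671, adjusted p = 0.180).

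None of these differences passed the adjustment. Over all microRNAs it was passed by 8 of 261 for the VSD change between myocardium and amniotic fluid (3.07%), 2 of 215 between myocardium and serum (0.93%), 0 of 184 between amniotic fluid and serum (0%) and 0 of 261 for the non-VSD change between myocardium and amniotic fluid (0%). The VSD changes of miR-320-3p, 0.46 in amniotic fluid and 0.52 in serum, differed by -0.06 (permutation p = 0.834, adjusted p = 0.972), and its change in myocardium, 0.09, was lower than these by 0.37 and 0.43 (permutation p = 0.127 and 0.101).

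A ratio of 2 microRNAs within 1 library does not depend on how libraries are scaled. Of 14 such comparisons none had a Benjamini-Hochberg adjusted p under 0.05 over the 14, by exact permutation. The log2 ratio of miR-484 to miR-877 was 2.06 in NC serum and 0.59 in VSD serum, a difference of -1.47 (exact p = 0.0227, adjusted p = 0.122), with 2 VSD samples below 0, where miR-877 had more counts than miR-484. These were VSD replicates 2 and 4, the serum libraries with the lowest totals (166310 and 147609 counts), with 9 and 4 counts of miR-484. The log2 ratio of miR-320-3p to miR-877 was 4.07 in NC myocardium and 5.63 in NC serum, a difference of -1.56 (exact p = 0.00466, adjusted p = 0.0653). Without serum NC replicate 4, the sample with the most miR-877, that difference was -1.79 with an adjusted p of 0.0122 by exact permutation.

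**Figure D4:**
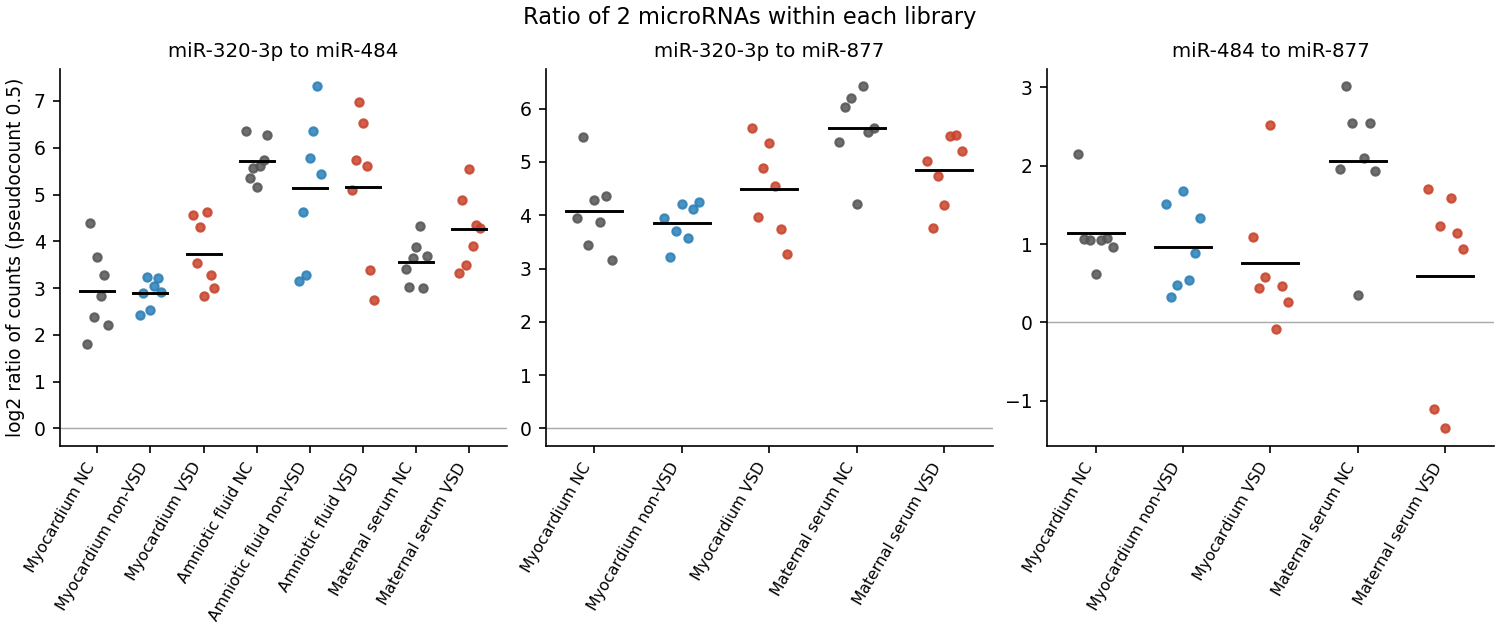
log2 ratio of the counts of 2 microRNAs within each library (pseudocount 0.5), by sample type and group, with points for samples and lines for means. The log2 ratio of miR-484 to miR-877 averaged 2.06 in NC serum and 0.59 in VSD serum. Ratios with miR-877 are not drawn for amniotic fluid, where it was mostly at 0.

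From sample to sample the correlations of the 3 microRNAs with each other were at most 0.46 in size. Whether they differed between sample types was not tested. The Spearman correlation of the log2 deviations from the group means of miR-320-3p and miR-484 was -0.06 in myocardium, -0.23 in amniotic fluid and 0.35 in serum. Between miR-320-3p and miR-877 it was -0.41 in myocardium and 0.27 in serum, and between miR-484 and miR-877 it was 0.46 and -0.05. By the correlation averaged over sample types, the microRNAs most like miR-484 were miR-93-5p (0.61), miR-185-5p (0.56) and miR-15b-5p (0.54), among 181 compared over the 3 sample types. Those most like miR-320-3p were miR-92b-3p (0.40), miR-181d-5p (0.38) and miR-423-3p (0.38). Those most like miR-877, over myocardium and serum and 214 microRNAs, were miR-483-5p (0.76), miR-483-3p (0.70) and miR-149-5p (0.58). miR-483-5p and miR-483-3p are the 2 strands of 1 hairpin. Some of these averages joined unlike values of myocardium and serum, as for miR-149-5p with miR-877 (0.85 and 0.30) and miR-92b-3p with miR-320-3p (0.18 and 0.62). Others were even, as for miR-483-3p with miR-877 (0.69 and 0.70). Values of 1 library share its scaling and depth, and the correlations are a description of 21 samples each in myocardium and amniotic fluid and of 14 in serum.

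The other strand of the miR-320 hairpin was nearly absent. miR-320-5p had 12, 35 and 21 counts in NC, non-VSD and VSD myocardium, where miR-320-3p had 33002, 30426 and 48007. In amniotic fluid it had 1, 26 and 0 counts, and all 26 were in 1 non-VSD sample, replicate 2. In NC and VSD serum it had 2 counts each. It was too low to be tested in every comparison.

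Other microRNAs made outside the usual route, a list of 9 with miR-320-5p, were mostly not called between treatment groups. In VSD and non-VSD myocardium 0 of 8 and 0 of 7 tested were called by edgeR, with medians of the log2 fold change of -0.43 and -0.46 against -0.05 and -0.07 over all microRNAs. With both DMO groups together 3 of 8 were called, against 8.49% of all microRNAs, and all were lower, namely miR-451-5p (-1.76), miR-451-3p (-2.12) and miR-1839-5p (-0.76). Both strands of miR-451, of miR-1839 and of miR-702 are on the list, so that these shares and medians do not rest on independent microRNAs. miR-451, which Drosha cuts and Argonaute 2 completes without Dicer, is also a red blood cell microRNA. In amniotic fluid 1 of 3 was called in the non-VSD group, miR-451-5p (2.51 ± 0.63, edgeR adjusted p = 0.0272), against 4.96% of all microRNAs, and 0 of 3 in the VSD group, against 0%. In serum 0 of 4 were called, with a median of 0.06 against -0.03 over all microRNAs. Between NC myocardium and NC serum 3 of 5 were called, against 78% of all, with miR-451-5p (4.79) and miR-1839-5p (3.46) higher in myocardium and miR-668 (-2.52) lower.

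Among the mirtrons of that list, miR-702-3p was even in myocardium, with means of 81.2 ± 27.1, 84.4 ± 34.2 and 87.5 ± 43.3 CPM (SD, n = 7 each) in the NC, non-VSD and VSD groups. miR-1224, whose hairpin also runs from GU to AG, had means of 2.29, 1.71 and 2.37 CPM there. In amniotic fluid it had counts in 3 of 7 NC, 5 of 7 non-VSD and 7 of 7 VSD samples. Its log2 fold change for both DMO groups against the NC group was 2.50 ± 1.08 (edgeR unadjusted p = 0.0287, adjusted p = 0.230), not called.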

How the data were processed

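Small RNA libraries were sequenced by the authors from rat myocardium, amniotic fluid and maternal serum. The authors trimmed and filtered the reads and deposited raw read counts per mature microRNA. The aligner, microRNA annotation and genome build are not given in the sources used here, and the submitters' processing notes name bcl2fastq 2.19 and DESeq. Counts alone were used here, and 70 deposited columns of normalized values and the columns of the authors' own group comparisons (fold changes and p-values) were left out. Both tables of a tissue hold the same NC counts, and a microRNA listed in only 1 amniotic fluid table was set to 0 in the other group.

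Groups were taken from the sample titles. Counts were fitted over all microRNAs of a table in R 4.3.3 with edgeR 4.0.16 (filterByExpr, TMM, quasi-likelihood test, Benjamini-Hochberg adjustment over all tested), with the 2 groups compared, or all 3 groups for VSD against non-VSD and for both DMO groups against NC. The log2 CPM used a prior count of 2. Exact permutation tests were two-sided, and ratios used a pseudocount of 0.5. Other settings tried were library size scaling, DESeq2 1.42.0, limma 3.58.1 (on log2 of CPM + 1), other filters, a replicate block, a red blood cell covariate, all groups in 1 fit and each sample left out. The fits were tested on simulated data. The 3 microRNAs were named in every comparison, and from the list of 9 other microRNAs those called, miR-320-5p and, after their values were seen, miR-702-3p and miR-1224. The 3 microRNAs nearest to each in sample-to-sample pattern were named by rule. The differences between sample types were planned with an adjustment over the 9 tests of the 3 microRNAs, under which 3 passed. After those values were seen the adjustment was changed to all microRNAs kept in both sample types, the wider family used elsewhere, under which 0 passed. Ratios between the VSD and non-VSD groups, which were outside the planned comparisons, were also computed and left out, and none had passed adjustment. Members and lists were chosen with earlier results of these data known. Python 3.11.15 with matplotlib 3.10.9 drew the figures.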

Additional observations from a re-analysis of the deposited data

Results flagged for a closer look

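Of 23 groups of 7 samples with counts, 2 passed Dixon's limit for a sample far from the others, where chance gives about 1 in 20 groups. Both were of miR-877 in amniotic fluid. Non-VSD replicate 1 had 18 counts and the other 6 samples of its group none, so that its gap to the nearest sample was 1 of the range on the log2 scale, as any count above 0 would give beside 6 samples at 0. VSD replicate 1 had 15 counts, with a gap of 0.731 of the range to replicate 6, which had 1 count. In that group 5 samples were at 0. Both values follow in part from these zeros and are no test that the samples stood apart. The deposited labels give no other difference of these samples.

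A difference between sample types had an unadjusted permutation p under 0.05 in 4 cases, and none passed adjustment over all microRNAs. The differences, as the change in myocardium less the change in the other sample type, were -0.95 for miR-320-3p in the non-VSD group against amniotic fluid, -1.71 for miR-484 in the VSD group against amniotic fluid, -1.45 for miR-484 in the non-VSD group against amniotic fluid and -1.44 for miR-877 in the VSD group against maternal serum. Amniotic fluid differed from myocardium in library kit, extraction kit, sequencer and depth, and maternal serum in extraction kit and depth, and the part of these was not tested.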

How the results depend on the processing

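The log2 fold changes, ratios and differences between sample types were recomputed 835 times over 49 results. Of these, 748 kept direction and side of the threshold, 16 lost a call, 16 gained one and 55 changed sign, and most of the last were of values near 0. The cause of each change was not tested.

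By library size alone, signs turned for miR-877 (0.064) in VSD myocardium, miR-320-3p (0.11) and miR-484 (0.13) in non-VSD myocardium, miR-320-3p (0.30) and miR-877 (0.21) in myocardium of both DMO groups, miR-484 (0.12) between NC myocardium and NC serum, and the difference of the VSD change of miR-320-3p between myocardium and amniotic fluid (0.062). With the red blood cell covariate they turned for miR-320-3p (-0.18), miR-484 (0.18) and miR-877 (0.32) in VSD myocardium, miR-484 (0.23) in non-VSD myocardium, miR-877 (0.045) in myocardium of both DMO groups and miR-484 (0.050) between VSD and non-VSD amniotic fluid. The call of miR-320-3p in non-VSD amniotic fluid was lost with that covariate (1.02), limma (0.91, adjusted p = 0.0548), no filter (1.04, adjusted p = 0.0638) and the replicate block (0.91, adjusted p = 0.136). DESeq2 called miR-484 there (2.03), with 29 of 242 microRNAs called. For both DMO groups it called miR-320-3p (0.85) and miR-484 (1.88), with 16 of 273 called. At least 10 counts in every sample also called miR-320-3p for both DMO groups (0.82), with 8 of 133 called. Without a filter miR-320-3p in myocardium of both DMO groups was 0.015. miR-484 in serum was -0.17 by limma and -0.074 with the replicate block.

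Between NC myocardium and NC serum, DESeq2 gave 0.11 for miR-484 and 0.87 for miR-877, called. No filter gave -0.36 for miR-320-3p, not called, 0.32 for miR-484 and 1.13 for miR-877, called. At least 10 counts in every sample gave -0.075 for miR-320-3p, not called, and 0.66 for miR-484. Of all microRNAs in this comparison, DESeq2 called 311 of 382 and the fit with no filter 365 of 509.

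With 1 sample left out, the log2 fold change ran from -0.12 to 0.17 (miR-320-3p, VSD myocardium), -1.04 to -0.60 (miR-484, VSD myocardium), -0.37 to 0.15 (miR-484, non-VSD myocardium), -0.039 to 0.19 (miR-877, non-VSD myocardium), -0.13 to 0.10 (miR-320-3p, myocardium of both DMO groups), 0.83 to 1.15 (miR-320-3p, non-VSD amniotic fluid), 1.72 to 2.192 (miR-484, non-VSD amniotic fluid) and -0.27 to 0.19 (miR-484, serum). Between NC myocardium and NC serum it ran from -0.29 to 0.13 for miR-484 and 0.43 to 1.10 for miR-877, called without serum NC replicate 1 or 4. For ratios, the range is that of the difference of mean log2 ratios between 2 groups. For non-VSD less NC myocardium it ran from -0.23 to 0.20 (miR-320-3p to miR-484) and -0.37 to 0.017 (miR-320-3p to miR-877). For VSD less NC serum it ran from -1.02 to -0.61 (miR-320-3p to miR-877) and -1.76 to -1.15 (miR-484 to miR-877). For NC myocardium less NC serum it ran from -1.79 to -1.41 (miR-320-3p to miR-877) and -1.21 to -0.77 (miR-484 to miR-877). The last 4 passed their adjustment without serum NC replicate 4, and the ratio of miR-320-3p to miR-877 also without myocardium NC replicate 2.

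The labels do not say whether equal replicate numbers pair the samples, and 7 pairs for each comparison cannot decide it. Correlations of same-numbered samples ran from -0.63 to 0.47, and at most 3 of 7 samples of a pair of groups were nearest to their own number. Between non-VSD and VSD myocardium 5 of 7 same-numbered pairs correlated above 0.1, and 2 samples were nearest to their own number. In serum 5 of 7 pairs correlated above 0.1, and 1 sample was nearest to its own number. The replicate block moved the calls from 12 to 2 in non-VSD amniotic fluid and from 41 to 5 in myocardium of both DMO groups, but from 0 to 5 in serum. Over all alternatives the number of microRNAs called ran from 0 to 46 (2 as reported) in VSD myocardium, 0 to 48 (1) in non-VSD myocardium, 0 to 66 (41) in myocardium of both DMO groups, 0 to 2 (0), 2 to 29 (12) and 0 to 16 (2) in VSD, non-VSD and all DMO amniotic fluid, 0 to 6 (0) between VSD and non-VSD amniotic fluid, 0 to 5 (0) in serum and 142 to 365 (298) between NC myocardium and NC serum. Those at the DE-microRNA threshold, in the same order as far as serum, ran from 12 to 52 (32), 13 to 35 (19), 7 to 43 (23), 10 to 84 (17), 19 to 109 (30), 11 to 77 (22), 5 to 88 (9) and 4 to 34 (10), and from 13 to 40 (25) between VSD and non-VSD myocardium. Depth limits amniotic fluid most, where miR-877 could not be tested and miR-484 rested on as few as 3 counts.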
